A study of Rattus norvegicus with 48 samples.

Results

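The solute carriers that move sulfate, oxalate, phosphate, bicarbonate, chloride, sodium, protons and calcium across the membranes of the nephron were followed in rat kidney. They were taken as every probe whose annotated symbol begins with Slc4a, Slc8a, Slc9a, Slc12a, Slc13a, Slc17a, Slc20a, Slc24a, Slc26a or Slc34a, without Slc12a1 and Slc12a3, and numbered 52 of the 22226 probes, for 51 genes. Slc4a4 has a bright and a dim probe, and Slc4a1ap, which encodes an adaptor protein and no carrier, shares only the start of its name. RNA of renal cortex and of renal medulla was measured on Illumina rat BeadChips, with 48 arrays in 8 groups of 6.

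The groups were HLP+Apocynin (chow with 5% hydroxy-L-proline, a precursor of oxalate, together with apocynin, an inhibitor of NADPH oxidase), apocynin alone, HLP alone and control rats on regular chow, each in cortex and in medulla at 28 days. The rats were male and are labelled Wistar, whereas the study's methods name another strain. The methods put apocynin in the drinking water at 4 mM, and mention no group on apocynin alone. The labels number the arrays within each group. Cortex and medulla arrays of the same treatment and number were taken to come from the same rat, which is an assumption.

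The arrays differ in ways that touch every result below. A second deposited table gives 40 of the 48 arrays the name of another sample and 24 the name of another group, but 0 the name of another tissue. Here the names of the signal table were used. Within each tissue, control and HLP arrays stand in 1 block of 12 columns and both apocynin groups in another, and what apocynin did cannot be told apart from a difference between blocks. The cortex columns all come before the medulla columns, so a tissue difference cannot be told apart from one between blocks either. The mean of proximal tubule markers minus the mean of inner medulla markers, a tissue index on the log2 scale, had a median of 0.83 in cortex and −0.70 in medulla, but 2 cortex arrays (control 4 and HLP+Apocynin 3) and 5 medulla arrays (control 1 and 4, HLP 2, apocynin 4 and HLP+Apocynin 5) lay nearer the other tissue. The arrays of rat HLP+Apocynin 3 also had the highest fibroblast and smooth muscle marker score in both tissues (1.39 in cortex and 2.41 in medulla, against medians of 0.03 and 0.61 in their groups) and the highest macrophage score (0.90 and 1.501). Median raw signals ran from 36.4 to 75.1 units per array.

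In the kidney these carriers are laid out along the nephron. Sulfate and phosphate that pass the glomerulus are taken back in the proximal tubule by sodium-driven carriers of the brush border, while exchangers of the Slc26a family swap sulfate, oxalate, chloride and bicarbonate across the apical and basolateral membranes. Oxalate is secreted by the same cells, and the balance of these exchangers helps set how much reaches the urine. Further along, Slc4a and Slc26a exchangers of the intercalated cells move bicarbonate and chloride.

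The starts of 3 sulfate and phosphate carrier genes higher in cortex, and of Slc34a2, the sodium-phosphate carrier higher in medulla, are shown as examples from both sides of the tissue comparison. The 3 were chosen as sulfate and phosphate carriers whose window holds the motif described next. Promoters of 43 of the 51 genes were found by symbol in the RefSeq table (GRCr8), and the 250 bases before the annotated start were read in the direction of the gene. Capitals mark GTTAA or TTAAC on the strand printed, an arm of the palindromic site of the hepatocyte nuclear factor 1 proteins, which are transcription factors of the proximal tubule. The match was searched on both strands.
Slc13a1, chr4:53612705-53612954, minus strand: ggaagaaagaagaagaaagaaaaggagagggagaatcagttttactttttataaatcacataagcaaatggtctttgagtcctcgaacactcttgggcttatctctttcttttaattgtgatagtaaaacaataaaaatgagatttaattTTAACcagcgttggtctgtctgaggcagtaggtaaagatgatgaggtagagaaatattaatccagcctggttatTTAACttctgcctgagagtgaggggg
Slc26a1, chr14:1184721-1184970, plus strand: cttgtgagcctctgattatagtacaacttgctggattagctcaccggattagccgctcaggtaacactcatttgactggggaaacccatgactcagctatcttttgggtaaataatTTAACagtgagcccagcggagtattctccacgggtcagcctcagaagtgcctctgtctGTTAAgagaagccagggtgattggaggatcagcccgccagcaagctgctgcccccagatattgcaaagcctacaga
Slc34a1, chr17:9238984-9239233, minus strand: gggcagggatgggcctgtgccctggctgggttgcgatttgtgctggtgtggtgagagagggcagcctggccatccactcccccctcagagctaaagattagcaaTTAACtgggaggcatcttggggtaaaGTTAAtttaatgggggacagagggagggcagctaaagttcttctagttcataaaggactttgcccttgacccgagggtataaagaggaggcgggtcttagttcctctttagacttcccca
Slc34a2, chr14:62143073-62143322, minus strand: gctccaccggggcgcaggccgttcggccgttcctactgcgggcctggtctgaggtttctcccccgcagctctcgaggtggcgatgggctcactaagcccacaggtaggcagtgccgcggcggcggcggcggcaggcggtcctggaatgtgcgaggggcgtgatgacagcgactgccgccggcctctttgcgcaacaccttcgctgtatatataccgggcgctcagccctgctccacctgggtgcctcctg
Slc13a1 holds the motif 100 and 26 bases before its start, Slc26a1 at 134 and 76 bases and Slc34a1 at 146 and 120 bases, while Slc34a2 has no match in this window. Slc26a4, Slc34a3, Slc4a4, Slc12a8, Slc4a9 and Slc13a3, also higher in cortex, have 0 matches. The motif stood in 8 of the 43 member promoters (18.6%), against 7426 of 33469 promoters in the table (22.2%), and at least 2 matches stood in 5 member promoters (11.6%), against 5.45% of all. Besides the genes above, these 5 hold Slc13a2 and Slc8a1. A match is a description of the letters, and the annotated start may not be the one used in kidney.

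A probe was called detected on an array where its detection p-value was under 0.05. Of the 52 probes, 24 were detected on all 48 arrays and 10 on none (Slc17a7, Slc17a8, Slc24a2, Slc24a3, Slc26a2, Slc26a9, Slc26a10, Slc8a2, Slc9a4 and Slc9a7). Levels are given as log2 of the background-corrected, quantile-normalized signal, with a constant of 16 added, so that an undetected probe sits at about 6.4 to 6.5 and differences of dim probes are compressed. With detection on at least 6 arrays as the rule, 36 probes were tested in cortex, 35 in medulla and 39 over both tissues. The other 13 were the 10 undetected ones and Slc24a1, Slc4a7 and Slc4a10, detected on at most 4 arrays each. All 3 Slc13a, all 3 Slc34a, all 3 Slc12a and both Slc20a probes were tested, as were 10 of 12 Slc4a, 6 of 8 Slc17a, 5 of 8 Slc26a, 4 of 6 Slc9a, 2 of 3 Slc8a and 1 of 4 Slc24a probes. Slc26a6, the apical oxalate exchanger of the proximal tubule, and Slc12a2 had no probe with that symbol and were not analysed here.

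The first comparison asked how the carriers divide between cortex and medulla, over all 4 treatments. Of 39 members tested, 28 differed between the tissues, 16 higher in cortex and 12 higher in medulla. Among all 12900 probes tested, 60.5% differed, 31.5% higher in cortex and 29% higher in medulla. The split of the members depended on the scaling: it was 13 and 14 with arrays scaled by their median, and 8 and 25 in the authors' log2 values, which share a median within each tissue. There the median of all probes lay at −0.45, and Slc12a5, Slc17a2 (−0.12), Slc17a9, Slc8a1 (−0.12) and Slc9a2 turned to the side of medulla. With median scaling the median of all probes lay at −0.07. The splits under both scalings are of members alone, with no share of all probes beside them. What follows is from the main fit. The median difference was 0.03 for the members and 0.00 for all probes, and 7 members passed a difference of 2-fold, 6 of them higher in cortex. The 2-fold counts are of members alone, with no share of all probes beside them. Levels and differences in this comparison are on the log2 scale, over 24 arrays a tissue, with p-values from limma adjusted over all probes tested.

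Slc26a4 (pendrin), the chloride-bicarbonate exchanger of cortical intercalated cells, had a lowest level of 8.93, a median of 10.83 and a highest of 11.20 in cortex, against 6.63, 8.38 and 10.94 in medulla. It was higher in cortex by 2.21 ± 0.26 (SE; 4.64-fold; adjusted p = 1.8e-09) and was higher in the cortex of 23 of 24 rats. The ranges overlapped through the arrays nearer the other tissue: 9.50 to 10.94 in the 5 such medulla arrays, against 6.63 to 9.15 in the other 19. Slc4a9, a bicarbonate transporter of the same cell type in cortex, ranged over 7.65, 8.83 and 9.28 in cortex and 6.72, 7.40 and 8.90 in medulla, higher in cortex by 1.22 ± 0.13 (adjusted p = 2.4e-10). Without the 7 arrays the differences widened to 2.83 for Slc26a4 and 1.504 for Slc4a9. The arrays were picked for markers nearer the other tissue, a choice that by itself favours wider differences.

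The phosphate carriers did not share a side. Slc34a1 (NaPi-IIa) and Slc34a3 (NaPi-IIc) take up phosphate at the brush border of the proximal tubule. Slc34a3 had levels of 10.11, 11.78 and 11.96 (lowest, median, highest) in cortex and 6.65, 9.73 and 11.95 in medulla, higher in cortex by 1.93 ± 0.27 (3.81-fold; adjusted p = 8.0e-08). Slc34a1 had 11.95, 12.57 and 12.79 in cortex and 9.45, 11.99 and 12.56 in medulla, higher in cortex by 0.70 ± 0.14 (1.62-fold; adjusted p = 5.0e-05) and in 23 of 24 rats. The call of Slc34a1 was lost in 1 of 12 alternatives, with the difference as small as 0.28 (limma or t-test adjusted p up to 0.14).

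Slc34a2 (NaPi-IIb), best known from intestine and lung, went the other way. It had levels of 6.52, 6.67 and 10.22 in cortex and 6.66, 8.30 and 11.35 in medulla, lower in cortex by 1.36 (SE 0.25; 2.56-fold; adjusted p = 1.3e-05) and in 22 of 24 rats. The highest level in each tissue was on an array of rat HLP+Apocynin 3. Another high pair, 8.92 in cortex and 9.98 in medulla, came from rat apocynin 3.

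The ubiquitous phosphate carriers of the Slc20a family were also higher in medulla. Slc20a2 (Pit2) had 7.11, 7.33 and 8.01 in cortex and 7.44, 7.95 and 8.53 in medulla, a difference of −0.59 ± 0.06 (adjusted p = 2.6e-10). Within groups it was −0.75 in HLP+Apocynin, −0.91 in apocynin, −0.51 in HLP and −0.19 in control rats. Slc20a1 (Pit1) had 9.21, 9.58 and 9.98 in cortex and 9.51, 9.81 and 10.19 in medulla, with largely overlapping ranges and a difference of −0.16 ± 0.06 (adjusted p = 0.013). The call of Slc20a1 was lost in 1 of 12 alternatives (limma or t-test adjusted p up to 0.15). Slc17a3, an organic anion carrier first described as a phosphate carrier, followed the same side with −0.42 ± 0.10 (adjusted p = 3.2e-04), and its relative Slc17a1 did not pass the test (−0.03 ± 0.08, adjusted p = 0.79). Slc17a2 was higher in cortex by 0.34 ± 0.13 (adjusted p = 0.018), a call lost in 1 of 12 alternatives and turned in 1.

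Among sulfate and dicarboxylate carriers, Slc13a1 (NaS1), which takes up sulfate at the brush border, had levels of 10.09, 11.71 and 12.13 in cortex and 6.84, 10.51 and 12.003 in medulla, higher in cortex by 1.48 ± 0.22 (2.78-fold; adjusted p = 3.1e-07). Slc26a1 (Sat1), the basolateral exchanger of sulfate for oxalate, had 10.74, 11.49 and 11.93 in cortex and 8.90, 10.69 and 11.67 in medulla, higher in cortex by 0.96 ± 0.16 (1.94-fold; adjusted p = 1.9e-06). Both were thus highest in cortex, and the medulla values spread over several log2 units. Slc13a3 (NaDC3), the basolateral dicarboxylate carrier, was higher in cortex by 0.95 ± 0.15 (adjusted p = 8.5e-07), while Slc13a2 (NaDC1), which recovers citrate at the brush border, was higher by 0.21 ± 0.11 without passing the test (adjusted p = 0.094). Without the 7 arrays, a choice that favours wider differences, Slc13a2 passed, with a difference of 0.33 (adjusted p = 0.014), and Slc13a1 differed by 1.92.

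Of the bicarbonate and proton carriers, the bright probe of Slc4a4 (NBCe1), the basolateral sodium-bicarbonate cotransporter of the proximal tubule, had 9.90, 11.85 and 12.51 in cortex and 6.97, 9.80 and 11.76 in medulla, higher in cortex by 1.82 ± 0.24 (3.53-fold; adjusted p = 3.2e-08). Its dim probe lay near the floor and also differed towards cortex (0.11 ± 0.02, adjusted p = 5.5e-07). Slc12a8, a member of the cation-chloride cotransporter family, was higher in cortex by 1.25 ± 0.17 (adjusted p = 3.6e-08), with 8.61, 9.79 and 10.10 in cortex and 6.92, 8.68 and 9.91 in medulla. Slc4a2 (AE2) was higher in cortex by 0.49 ± 0.07 (adjusted p = 3.9e-08), but within groups this ran from −0.09 in control rats to 0.97 in apocynin rats. With arrays scaled by their median the difference was 0.17 (adjusted p = 0.051). In all, 2 of 12 alternatives lost the call, with the difference as small as 0.03 (limma or t-test adjusted p up to 0.68).

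Slc4a1 (AE1), the exchanger of acid-secreting intercalated cells and of red cells, had 6.75, 7.03 and 7.83 in cortex and 6.87, 7.38 and 8.64 in medulla, a difference of −0.32 ± 0.11 (adjusted p = 0.0095). Slc4a11, found in the thin descending limb of mice, had 6.42, 6.45 and 6.65 in cortex, where 1 of 24 arrays detected it, and 6.44, 6.62 and 6.93 in medulla, where 18 of 24 did (−0.19 ± 0.03, adjusted p = 1.1e-06). Slc26a7, a basolateral exchanger of intercalated cells in the outer medulla, was detected on 3 cortex and 17 medulla arrays and differed by −0.08 ± 0.02 (adjusted p = 5.3e-05). Slc9a3 (NHE3), the sodium-proton exchanger of the proximal tubule and thick ascending limb, did not pass the test (−0.06 ± 0.10, adjusted p = 0.61). It had 9.002, 9.98 and 10.38 in cortex and 8.35, 10.05 and 10.44 in medulla.

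The remaining 8 members called in this comparison, Slc12a5, Slc17a6, Slc17a9, Slc26a3, Slc4a5, Slc4a8, Slc8a3 and Slc9a2, differed by at most 0.12 in either direction, as did Slc8a1 (NCX1), the sodium-calcium exchanger, with 0.06 ± 0.01 (adjusted p = 2.1e-10) and 23 of 24 rats higher in cortex. All of these 9 had mean levels under 7 in both tissues, and the highest single level among them was 7.13 for Slc9a2. The call was lost in 7 of 10 alternatives for Slc4a8, 3 of 10 for Slc26a3, 2 of 10 for Slc8a3 and 1 of 11 for Slc9a2. Besides Slc13a2, Slc17a1 and Slc9a3, the members that did not pass were Slc12a4, Slc17a5, Slc24a4, Slc26a5, Slc4a1ap, Slc4a3, Slc9a5 and Slc9a8. Restricted to probes with a mean level of at least 7, 16 of 22 members were called, 11 of them higher in cortex. In the main fit, 62.7% of all 6620 probes of that level were called.

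**Figure D1:**
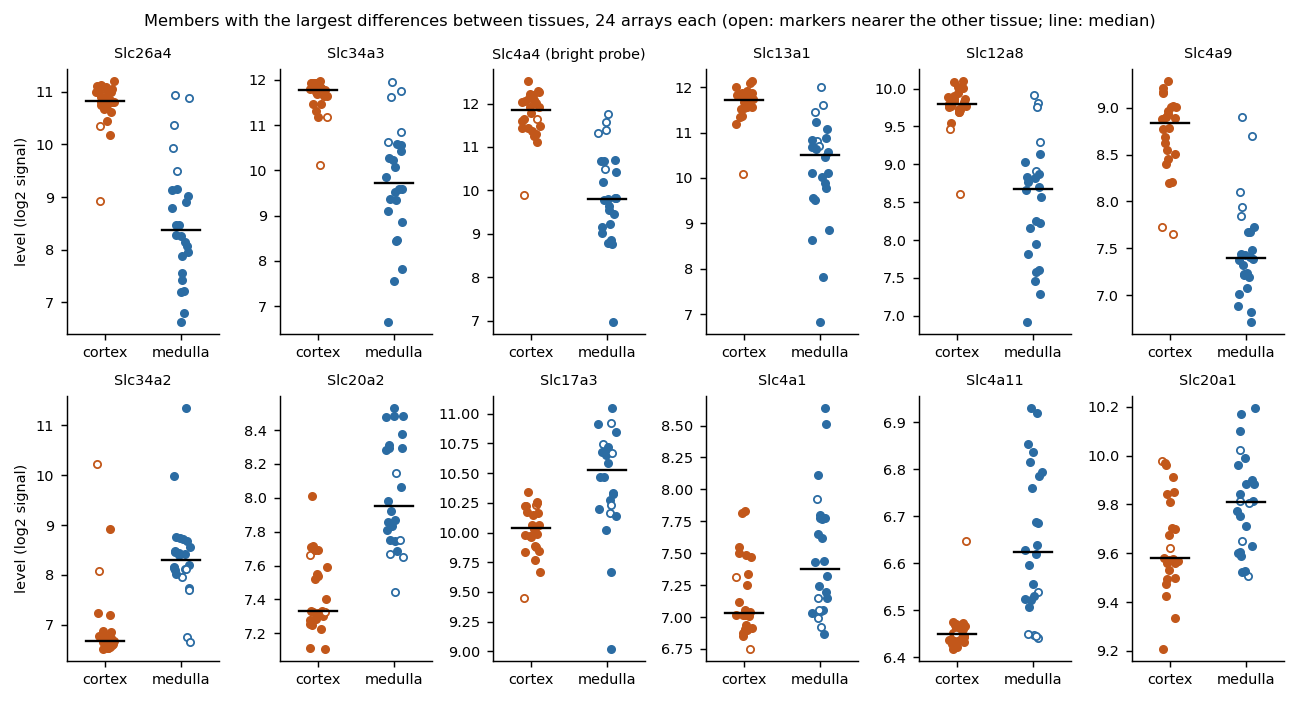
Levels (log2 signal) of the 6 members with the largest difference towards cortex (top) and the 6 with the largest towards medulla (bottom), 1 point per array, 24 cortex arrays (left) and 24 medulla arrays (right), with the median as a line and each panel on its own scale. Open points are the 2 cortex and 5 medulla arrays whose markers lie nearer the other tissue; for Slc26a4 the 5 open medulla points run from 9.50 to 10.94, above the other 19.

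The levels in medulla differed between the arrays nearer cortex and the rest. In the 5 medulla arrays nearer cortex, Slc13a1 lay between 10.70 and 12.003 with a median of 11.46, against 6.84 to 11.24 with a median of 10.11 in the other 19. Slc34a3 lay between 10.62 and 11.95 in those 5 arrays and between 6.65 and 10.58 in the other 19, with no overlap. Slc34a2 ran the opposite way, between 6.66 and 8.11 in the 5 arrays and between 7.73 and 11.35 in the rest.

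In cortex, control array 4 stood out in the same manner, with the lowest cortex levels of Slc26a4 (8.93), Slc34a3 (10.11), Slc13a1 (10.09) and Slc4a4 (9.90). Not every array followed this order: medulla array HLP+Apocynin 3, with the lowest index of all, had Slc13a1 at 11.24 and Slc34a3 at 7.56. How far a carrier's level in an array follows the share of cortex in the piece of tissue, and how far the amount of RNA per cell, cannot be told apart in whole tissue.

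**Figure D2:**
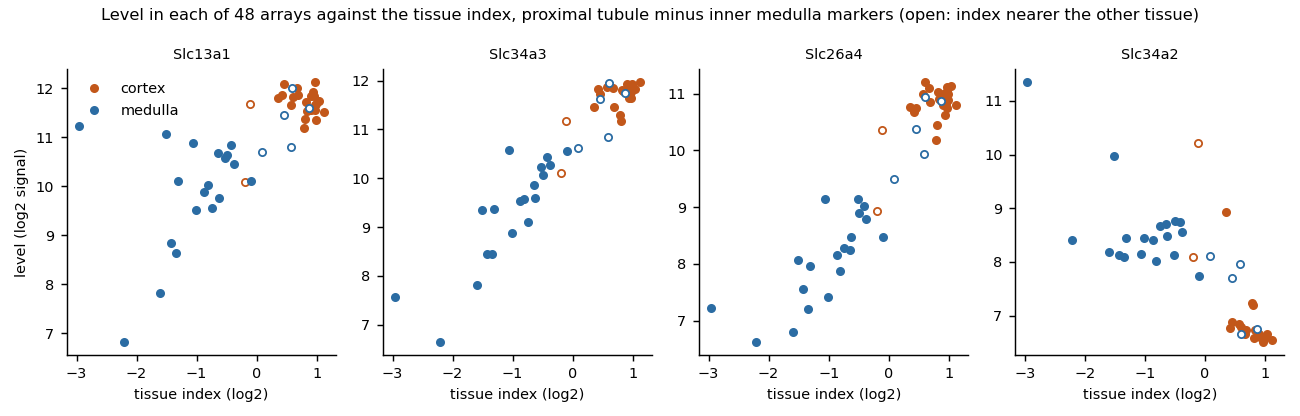
Level (log2 signal) of Slc13a1, Slc34a3, Slc26a4 and Slc34a2 in each of the 48 arrays against the tissue index (proximal tubule minus inner medulla markers, log2), cortex in orange and medulla in blue. The first 3 rise with the index and Slc34a2 falls; open points are the 7 arrays with an index nearer the other tissue.

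The second set of comparisons asked what HLP, the oxalate-producing diet, did to the carriers. In cortex, 1 of 36 members passed the test between HLP and control, with 2.4% of all 12268 probes called, 1.03% higher and 1.37% lower. The member was Slc8a1, whose levels were 6.54, 6.58 and 6.59 (lowest, median, highest) in HLP cortex and 6.50, 6.52 and 6.54 in control cortex, so that the ranges met at their ends. In raw signal these are 40.1 to 52.7 units in HLP cortex and 35.3 to 42.3 units in control cortex, while the median raw signals of these 12 arrays lay at 36.4 to 39.9 units. The difference was 0.06 ± 0.01 (1.04-fold, adjusted p = 0.030). It did not pass without the arrays nearer the other tissue, among them control 4 (adjusted p = 0.056), nor with the sample names of the second table (adjusted p = 0.81). In all, 6 of 14 alternatives lost the call.

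The carriers of oxalate, sulfate and phosphate did not pass the test in HLP cortex, and their differences lay on both sides of 0. Slc26a1 had 11.32, 11.60 and 11.88 in HLP cortex and 10.74, 11.39 and 11.60 in control cortex (0.27 ± 0.16, adjusted p = 0.32). Slc13a1 had 11.35, 11.72 and 11.92 in HLP cortex and 10.09, 11.45 and 12.13 in control cortex (0.39 ± 0.20, adjusted p = 0.26). Slc34a3 differed by 0.48 ± 0.20 (adjusted p = 0.17), Slc34a1 by 0.26 ± 0.10 (adjusted p = 0.15), Slc26a4 by 0.51 ± 0.23 (adjusted p = 0.20), Slc4a9 by 0.59 ± 0.21 (adjusted p = 0.12) and the bright probe of Slc4a4 by 0.58 ± 0.26 (adjusted p = 0.20). The phosphate carriers and their relatives with a negative difference were Slc34a2 (−0.46 ± 0.48, adjusted p = 0.63), Slc17a3 (−0.17 ± 0.11, adjusted p = 0.38), Slc20a2 (−0.13 ± 0.13, adjusted p = 0.61) and Slc17a1 (−0.03 ± 0.12, adjusted p = 0.93).

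Slc4a2 had 9.54, 9.72 and 10.15 in HLP cortex and 9.20, 9.35 and 9.56 in control cortex, a difference of 0.42 ± 0.15 that did not pass (adjusted p = 0.11). In all, 26 of 36 members (72.2%) had a positive difference, beside 52.1% of all probes, and 11 (30.6%) had an unadjusted p under 0.05, beside 21.5% of all probes. The median was 0.04, against 0.00 over all probes. Control cortex 4, with an index of −0.20, enters each of these differences. With the sample names of the second table, 21 of the 36 differences turned sign and 15 kept it. Without the 2 cortex arrays nearer medulla, and with the tissue index as a covariate (added after the data were seen), 0 members and 0 of all probes were called. The covariate left Slc13a1 at 0.23 ± 0.19 (adjusted p = 0.53) and Slc8a1 at 0.05 ± 0.01 (adjusted p = 0.067). The markers of the distal convoluted and connecting tubule were higher in HLP than in control cortex for 5 of 5 genes (1 called, median 0.51), those of intercalated cells for 7 of 8 (1 called, median 0.13) and those of the proximal tubule for 14 of 16 (0 called, median 0.08). The part of these segments in Slc8a1 was not tested.

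In medulla, 0 of 35 members passed between HLP and control, and 0% of all 11972 probes did. At an unadjusted p under 0.05 the counts were 0 members and 794 probes, and 0 members were called by the methods' t-test after the same adjustment. Slc13a1 had 8.64, 9.83 and 10.70 in HLP medulla and 6.84, 9.18 and 11.60 in control medulla, a difference of 0.60 ± 0.58. Slc34a3 had 8.45, 9.56 and 10.62 in HLP medulla and 6.65, 8.66 and 11.75 in control medulla, a difference of 0.53 ± 0.72. Both differences were about as large as their standard errors, and the control arrays spread over more than 4 log2 units.

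The mean of both HLP effects, HLP against control and HLP+Apocynin against apocynin, stays within the column blocks. It called 0 members and 0 probes in either tissue (unadjusted, 5 members or 13.9% in cortex beside 12.3% of all probes, and 1 or 2.86% in medulla beside 10.6%). HLP+Apocynin against apocynin also called 0 (unadjusted, 2.78% of members in cortex beside 6.98% of all probes, and 5.71% in medulla beside 6.04%). The HLP effect did not pass a test of its difference with and without apocynin for any probe in either tissue (unadjusted, 7 members or 19.4% in cortex beside 16.8% of all probes, and 1 or 2.86% in medulla beside 2.15%), nor between cortex and medulla (unadjusted, 0 members beside 4.07% of all probes).

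The third set asked what apocynin did, alone and with HLP. In medulla, the clearest member was Slc20a2, the ubiquitous phosphate carrier Pit2. It had levels of 7.92, 8.33 and 8.48 in HLP+Apocynin medulla, 7.65, 8.30 and 8.53 in apocynin medulla, 7.75, 7.85 and 8.06 in HLP medulla and 7.44, 7.71 and 7.87 in control medulla. All 6 HLP+Apocynin arrays were above all 6 control arrays, and the lowest apocynin array, number 4, is one of those nearer cortex.

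Slc20a2 was higher by 0.59 ± 0.12 in HLP+Apocynin than in control medulla (1.503-fold, adjusted p = 0.0064) and by 0.57 ± 0.12 in apocynin than in control medulla (1.48-fold, adjusted p = 0.0079). Against HLP medulla, HLP+Apocynin was higher by 0.40 ± 0.12 (adjusted p = 0.047). In cortex the same differences were 0.03 ± 0.13, −0.15 ± 0.13 and 0.16 ± 0.13, and none passed. The first comparisons share the control arrays. Without the arrays nearer the other tissue they were 0.55 (adjusted p = 0.0043), 0.62 (adjusted p = 0.0023) and 0.40 (adjusted p = 0.027), and with arrays scaled by their median they were 0.38, 0.49 and 0.34 and did not pass (adjusted p = 0.16, 0.17 and 0.36). With only the arrays that both tables put in the same group, none of these 3 calls of Slc20a2 held (adjusted p = 0.082, 0.053 and 0.33), and with the names of the second table HLP+Apocynin against control did not pass (0.40, adjusted p = 0.057). The call against HLP was also lost with those names, the authors' log2 values, no filter, only the arrays compared, the methods' t-test and without the arrays of HLP+Apocynin 3 (limma or t-test adjusted p between 0.055 and 0.073).

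Slc20a2 was the only one of 35 members called in medulla for HLP+Apocynin against control, where 7.38% of probes were called (2.26% higher and 5.12% lower), and for HLP+Apocynin against HLP (8.24%, with 3.59% higher and 4.65% lower). For apocynin against control, 2 members were called, 1 in each direction, beside 7.14% of all probes (2.84% higher and 4.3% lower). The median over the members was −0.01, −0.02 and 0.02 in these comparisons, against 0.00 over all probes.

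The other member was Slc4a2, the anion exchanger AE2, which is basolateral in the thick ascending limb. In medulla it had 9.01, 9.08 and 9.39 in HLP+Apocynin, 8.78, 9.01 and 9.34 in apocynin, 9.29, 9.44 and 9.59 in HLP and 9.22, 9.44 and 9.76 in control. It was lower by 0.42 in apocynin than in control medulla (SE 0.10; 1.33-fold; adjusted p = 0.017), and HLP+Apocynin against control gave −0.31 ± 0.10 (adjusted p = 0.064). The call of Slc4a2 was lost with the authors' log2 values, only the arrays compared, the methods' t-test and only the arrays of the same group in both tables (adjusted p between 0.059 and 0.085).

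In cortex Slc4a2 moved the opposite way. It had 9.31, 9.87 and 10.47 in HLP+Apocynin, 9.78, 9.92 and 10.34 in apocynin, 9.54, 9.72 and 10.15 in HLP and 9.20, 9.35 and 9.56 in control. All 6 apocynin arrays were above all 6 control arrays, whereas HLP+Apocynin overlapped control. It was higher by 0.63 ± 0.15 in apocynin (1.55-fold, adjusted p = 0.0051) and by 0.49 ± 0.15 in HLP+Apocynin (1.40-fold, adjusted p = 0.029). The second call was lost without the 2 cortex arrays nearer medulla, with the difference at 0.49 (adjusted p = 0.066). With the names of the second table neither cortex call of Slc4a2 held (0.23, adjusted p = 0.50, in HLP+Apocynin and 0.41, adjusted p = 0.12, in apocynin), nor with only the arrays of the same group in both tables (0.44, adjusted p = 0.37, and 0.76, adjusted p = 0.091). The HLP+Apocynin call was also lost with median scaling, the authors' log2 values, only the arrays compared, the methods' t-test and probes with a mean level of at least 7 (adjusted p between 0.051 and 0.11). The markers of the thick ascending limb had a median score of −0.34, −0.19, −0.17 and −0.16 in the cortex of HLP+Apocynin, apocynin, HLP and control rats, and of 0.00, 0.12, 0.42 and 0.41 in medulla. The part of segment share in Slc4a2 was not tested apart from the tissue index.

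**Figure D3:**
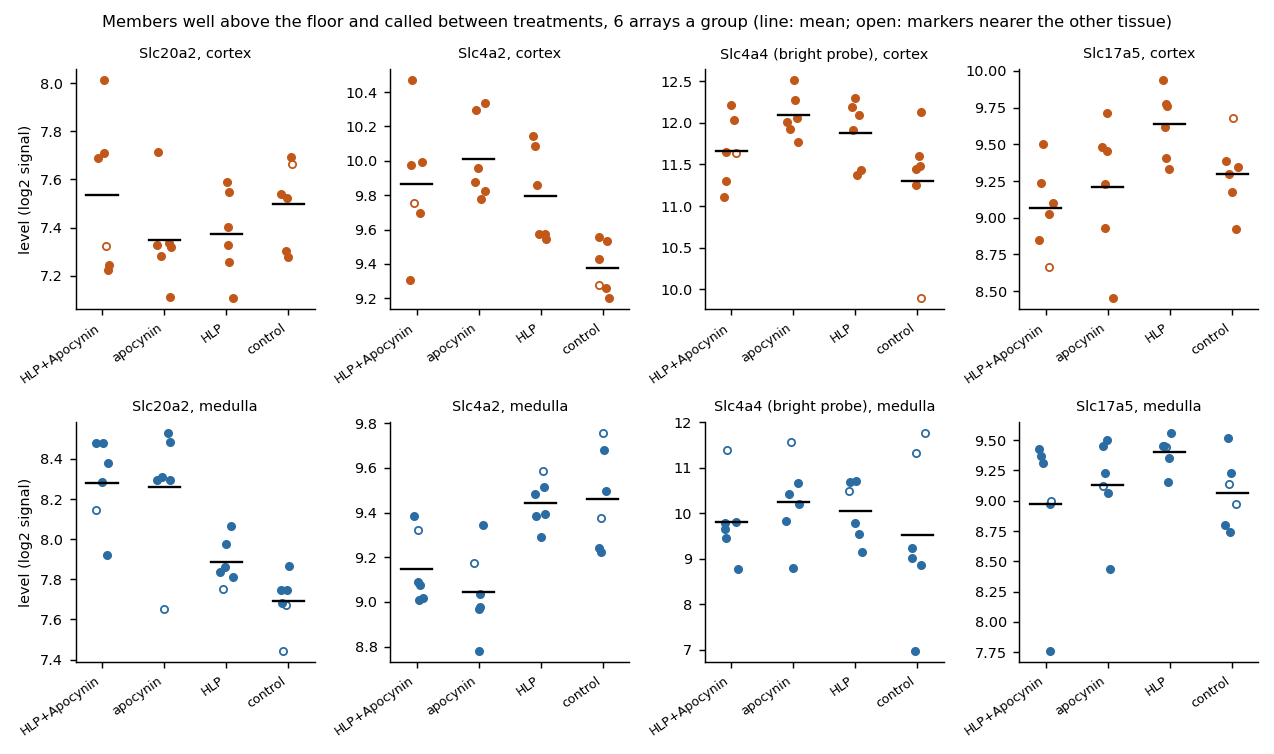
Levels (log2 signal) of Slc20a2, Slc4a2, the bright Slc4a4 probe and Slc17a5 in each array of the 4 groups, cortex above and medulla below, with group means as lines and open points for arrays with markers nearer the other tissue. Slc20a2 in HLP+Apocynin medulla lies between 7.92 and 8.48, above all control arrays, and Slc4a2 lies higher in apocynin than in control cortex and lower in apocynin than in control medulla.

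Cortex held more calls, but few of them far from the floor. Of 36 members, 5 were called for HLP+Apocynin against control, all higher, beside 16% of all probes (8.81% higher and 7.23% lower). For apocynin against control 6 were called, all higher, beside 16.8% (9.37% higher and 7.4% lower). For HLP+Apocynin against HLP 7 were called, 4 higher and 3 lower, beside 18.4% (9.33% higher and 9.06% lower). The shares of members, 13.9%, 16.7% and 19.4%, were near those of all probes.

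Of these, Slc17a5 (sialin, the lysosomal sialic acid carrier) was lower in HLP+Apocynin than in HLP cortex, with levels of 8.67, 9.06 and 9.50 against 9.33, 9.69 and 9.94. The difference was −0.57 ± 0.17 (1.49-fold, adjusted p = 0.024). The ranges overlapped, and the lowest HLP+Apocynin value came from array 3. Without that array the difference was −0.49 and did not pass (adjusted p = 0.066). In all, 5 of 16 alternatives lost the call (limma or t-test adjusted p up to 0.094). Control cortex lay between, at 8.92, 9.32 and 9.68.

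The bright probe of Slc4a4 (ILMN_1367577) had 11.77, 12.03 and 12.51 in apocynin cortex and 9.90, 11.46 and 12.13 in control cortex, a difference of 0.79 ± 0.26 (1.73-fold, adjusted p = 0.040). Control 4 is the array at 9.90. Without the arrays nearer the other tissue the difference fell to 0.51 and did not pass (adjusted p = 0.091). In all, 8 of 15 alternatives lost the call, with the difference as small as 0.26 (limma or t-test adjusted p up to 0.59). In HLP+Apocynin cortex the levels were 11.11, 11.65 and 12.21, and the difference from control was 0.36 ± 0.26 (adjusted p = 0.38). The dim probe of Slc4a4 was lower by 0.11 in HLP+Apocynin than in HLP cortex (adjusted p = 0.031), a call lost without the arrays nearer the other tissue (adjusted p = 0.062). In all, 8 of 14 alternatives lost it, with the difference as small as −0.03 (limma or t-test adjusted p up to 0.73).

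The other called members lay near the floor. Slc4a5 (NBCe2), a sodium-bicarbonate cotransporter, had levels of 6.56, 6.65 and 6.76 in HLP+Apocynin cortex, 6.62, 6.65 and 6.70 in apocynin cortex, 6.47, 6.48 and 6.52 in HLP cortex and 6.47, 6.49 and 6.51 in control cortex. Both apocynin groups lay above the other two without overlap. In raw signal this was 51.4 to 80.7 units in HLP+Apocynin and 63.7 to 89.8 in apocynin, against 31.5 to 38.6 in HLP and 32.3 to 37.8 in control cortex, and the probe was detected on 6, 6, 0 and 1 of 6 arrays. The difference from control was 0.16 ± 0.02 in HLP+Apocynin cortex and 0.17 ± 0.02 in apocynin cortex.

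In medulla Slc4a5 was detected on all 24 arrays, with 6.59, 6.68 and 6.70 in HLP+Apocynin and 6.62, 6.65 and 6.69 in control, and no comparison passed. Slc26a3, a chloride-bicarbonate exchanger of the colon, and Slc17a6, a glutamate carrier of neurons, gave the same order in cortex. Slc26a3 was higher by 0.07 ± 0.01 in both apocynin groups than in control, and Slc17a6 by 0.04 ± 0.01 in HLP+Apocynin and 0.05 ± 0.01 in apocynin. They were detected on 5 of 6 and 2 of 6 HLP+Apocynin arrays, 5 of 6 and 4 of 6 apocynin arrays and on none of the 12 control and HLP arrays.

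Slc26a5 (prestin, the motor protein of cochlear hair cells) was called for HLP+Apocynin against control (0.05 ± 0.01) and against HLP (0.06 ± 0.01), and Slc4a8, another sodium-bicarbonate carrier, for apocynin against control (0.05 ± 0.01). Slc8a1 was lower by 0.06 in HLP+Apocynin than in HLP cortex. These calls fall between the column blocks, except that of Slc8a1 in HLP. The median raw signal of the cortex arrays was 43.5 to 50.6 units in the block of both apocynin groups and 36.4 to 39.9 units in the block of HLP and control. Among all cortex probes with a mean level under 7, 22.8% were called for HLP+Apocynin against control, against 10.2% of those at 7 or more, where 1 of 22 members was called.

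**Figure D4:**
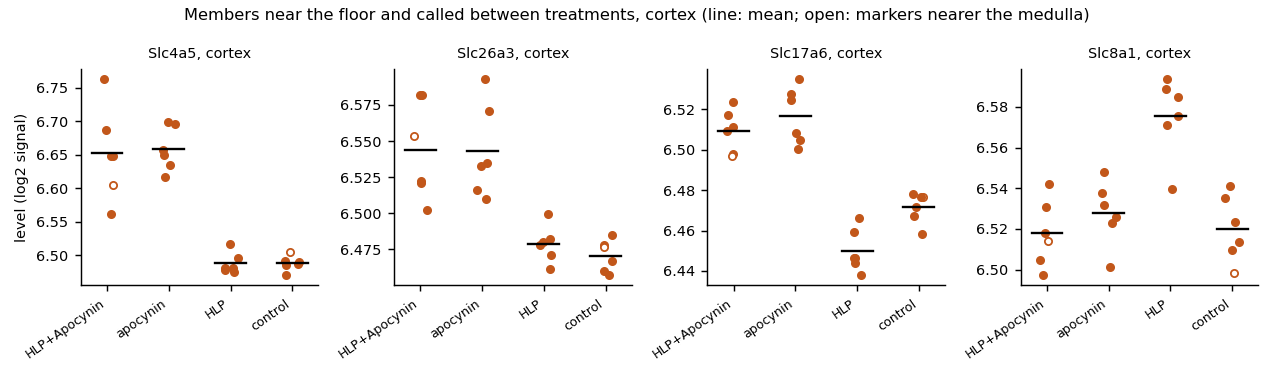
Levels (log2 signal) in cortex of Slc4a5, Slc26a3, Slc17a6 and Slc8a1, members near the floor, in each array of the 4 groups with means as lines, each panel on its own narrow scale. Slc4a5 lies between 6.56 and 6.76 in both apocynin groups and between 6.47 and 6.52 in HLP and control.

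Slc13a1, the sulfate carrier, had the largest differences from control of the 35 members tested in medulla. Its levels were 10.02, 10.76 and 11.46 in HLP+Apocynin, 10.11, 10.73 and 12.003 in apocynin, 8.64, 9.83 and 10.70 in HLP and 6.84, 9.18 and 11.60 in control. Against control it was higher by 1.57 ± 0.58 in HLP+Apocynin (2.98-fold) and by 1.55 ± 0.58 in apocynin (2.94-fold), and neither passed (adjusted p = 0.096 and 0.11). Control medulla 1 and 4, both nearer cortex, held its 2 highest control levels, 10.81 and 11.60, while the other 4 lay between 6.84 and 9.51.

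Without the 5 medulla arrays nearer cortex, Slc13a1 was higher than control by 2.43 ± 0.44 in HLP+Apocynin (adjusted p = 0.0034), by 2.30 ± 0.44 in apocynin (adjusted p = 0.0044) and by 1.41 ± 0.44 in HLP (adjusted p = 0.44). With the tissue index as a covariate the differences were 1.58 (adjusted p = 0.020), 1.45 (adjusted p = 0.034) and 0.48 (adjusted p = 0.80). The first of these fits rests on 4 control arrays, without those that held the highest control levels of Slc13a1. The second was added after the data were seen. In cortex the difference from control was 0.45 ± 0.20 in HLP+Apocynin, 0.50 ± 0.20 in apocynin and 0.39 ± 0.20 in HLP, and none passed. With the index as a covariate these were 0.52 (adjusted p = 0.044), 0.49 (adjusted p = 0.053) and 0.23 (adjusted p = 0.53).

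Other cortical carriers joined it in medulla once those 5 arrays were left out. Of these 5 arrays 2 are control, and the index that picked them is built on proximal tubule markers. Leaving them out lowers the control level of carriers high in cortex, so the calls below depend on that choice. For apocynin against control 9 members were called in place of 2, among them Slc34a3 (2.07), Slc4a4 (ILMN_1367577) (1.46), Slc26a4 (1.45) and Slc12a8 (1.21), all higher, and Slc4a11 (−0.26) and Slc26a7 (−0.11), lower. The others were Slc13a1, Slc20a2 and Slc4a2, and over all probes 1226 were called in place of 855. For HLP+Apocynin against control 5 were called in place of 1, adding Slc13a1, Slc12a8 (1.15), Slc4a11 (−0.26) and Slc26a7 (−0.13), and 1261 of all probes were called in place of 883. Of those added, the members that rose were higher in cortex than in medulla over all arrays, and the pair that fell were higher in medulla. Over all arrays, the intercalated cell markers in HLP+Apocynin against control medulla were higher for 0 of 8 genes and called lower for 5 (median −0.47), and the fibroblast and smooth muscle markers were higher for 6 of 6 (2 called, median 0.84). In apocynin against control medulla they were higher for 1 of 8 (0 called, median −0.23) and for 6 of 6 (0 called, median 0.43). The part of these cell types in the members' differences was not tested. The proximal tubule score had medians of −0.31 in HLP+Apocynin, −0.31 in apocynin, −0.37 in HLP and −0.72 in control medulla. Slc13a3 and Slc34a1, carriers of the same tubule, differed in medulla by 0.29 ± 0.41 and −0.06 ± 0.38 between HLP+Apocynin and control and did not pass in either fit.

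**Figure D5:**
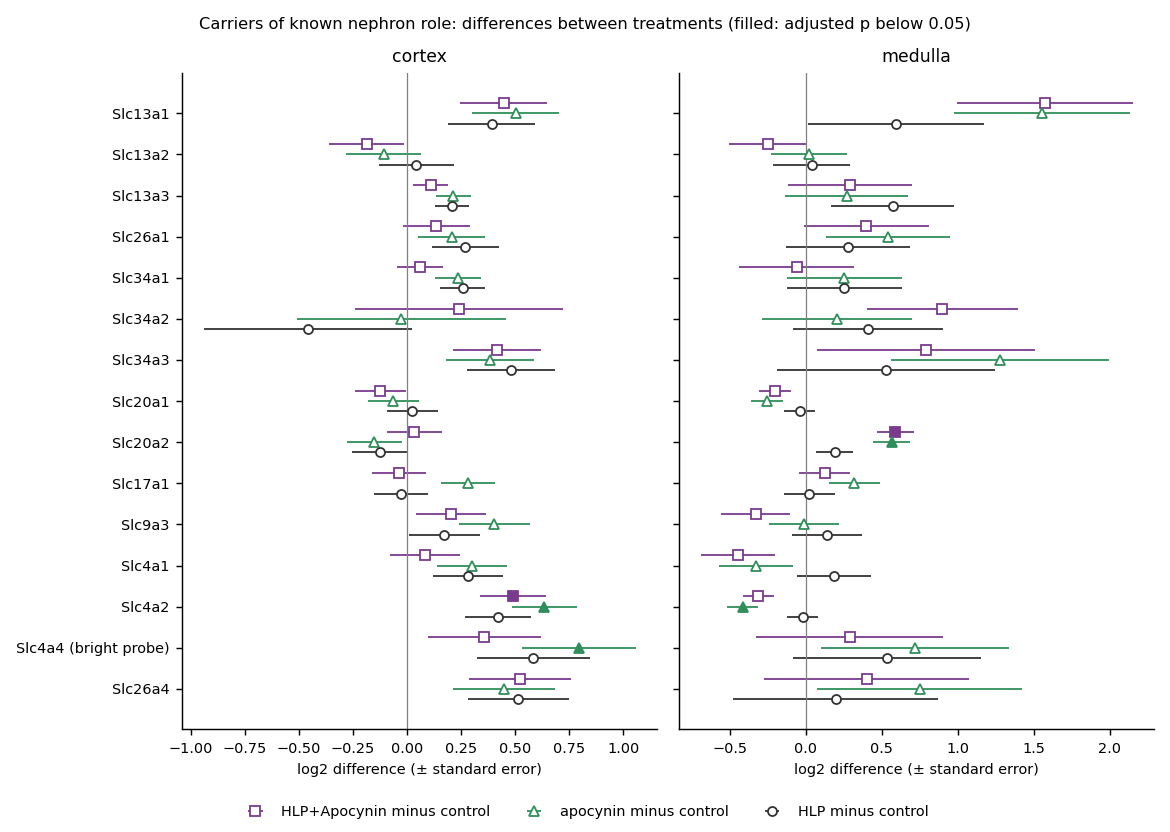
Log2 differences (± standard error) from control of 15 carriers with a known role in the nephron, in cortex (left) and medulla (right), for HLP+Apocynin (squares), apocynin (triangles) and HLP (circles), filled where the adjusted p was under 0.05. Filled points are Slc4a2 in cortex and medulla, the bright Slc4a4 probe in cortex and Slc20a2 in medulla, and the error bars of Slc34a3, Slc26a4, the bright Slc4a4 probe and Slc13a1 in medulla are the widest of those drawn.

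Genes that work with these carriers (scaffolds, kinases, carbonic anhydrases, hormone receptors and channels) numbered 39, of which 32 were on the array. Between the tissues 17 of 29 tested were higher in cortex and 7 higher in medulla, among them Pth1r, the parathyroid hormone receptor (0.61 ± 0.10), and Kl (klotho, 0.84 ± 0.14), both restraining phosphate uptake, higher in cortex, and Kcnj1 (−0.64 ± 0.10) and Cldn16 (−1.28 ± 0.12) of the thick ascending limb, higher in medulla. Of all probes, 31.5% were called higher in cortex and 29% higher in medulla.

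In cortex, HLP against control called 2 of 29 partners, both higher: Car12, a membrane carbonic anhydrase (0.88 ± 0.22, adjusted p = 0.040), and Trpv5, the calcium channel (0.09 ± 0.02, adjusted p = 0.042). Of all probes, 2.4% were called there. Without the cortex arrays nearer medulla, and with the tissue index as a covariate, 0 of all probes were called, so neither call held. Car12 was lower by 0.94 in HLP+Apocynin than in HLP cortex (SE 0.22; adjusted p = 0.0043), as was Car2 by 0.25 (adjusted p = 0.0087). These were the 2 partners called there, beside 18.4% of all probes. HLP+Apocynin against control called Umod (−0.31), Vdr (0.11) and Trpv5 (0.07), beside 16% of all probes. Apocynin against control called Wnk4 (0.45), Ezr (0.27), Vdr (0.17) and Umod (−0.23), beside 16.8% of all probes.

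In medulla, HLP against control called 0 of 28 partners and 0% of all probes. HLP+Apocynin against control called Sgk1, a kinase that acts on several carriers (0.86 ± 0.21, adjusted p = 0.018), Nherf2, a scaffold of Slc9a3 (−0.33 ± 0.07, adjusted p = 0.0051), and Car2 (−0.26 ± 0.08, adjusted p = 0.048). Of all probes, 7.38% were called there. Apocynin against control called Nherf2 alone (−0.29 ± 0.07, adjusted p = 0.011), beside 7.14% of all probes. HLP+Apocynin against HLP called Car2 (−0.25) and Casr (−0.09), beside 8.24% of all probes. The median difference of the partners was 0.10 for HLP against control in cortex and between −0.09 and 0.06 in the other comparisons of HLP, HLP+Apocynin and apocynin with control or HLP, apart from −0.12 for HLP+Apocynin against HLP in cortex.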

How the data were processed

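The authors deposited a table of linear probe intensities, which they describe as not normalized, with a detection p-value for each, and a table of log2 values that the authors normalized, as the values show, to a common median and spread within each tissue. The counts of probes in both are 22226, of which 13650 have 1 gene symbol in the platform annotation and 8576 have none. Symbols of all 52 member probes were found through their entrez identifiers in the rat gene table, and 0 changed. The sources used here name no chip or scan day.

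Intensities were background-corrected with nec (normexp from the detection p-values, offset 16) and quantile normalized over 48 arrays in limma 3.58.1 (R 4.3.3), then logged (log2). Probes with detection p-values under 0.05 in at least 6 arrays of a tissue, or of the 48, were tested across all probes with lmFit and eBayes with a trend, with Benjamini-Hochberg adjusted p-values called under 0.05. Where both tissues entered a test, duplicateCorrelation (statmod 1.5.0) treated the rat as a random block, with cortex and medulla of the same group and number taken as 1 rat. Over 24 such pairs the median correlation of deviations was 0.37 (−0.79 to 0.80), against −0.01 for other pairs. The fits were tested on simulated data. Depth is not counted on arrays, and 6 arrays a group limit the precision. The p-values measure the spread between rats, as read from the numbers in the labels.

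Values named in full are those of members called between treatments, of the 6 with the largest difference towards each tissue, and of carriers with a known role in sulfate, oxalate, phosphate or sodium-proton transport. The members, the lists of partners and segment markers and the tests were chosen with earlier results of these data known. Alternatives were median scaling, normalization within a tissue or without the apocynin group, no background correction, other filters, the authors' log2 values, the names of the second table, fits without doubted arrays, a replicate block and the methods' t-test.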

Additional observations from a re-analysis of the deposited data

Results flagged for a closer look

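In 28 named members and 8 groups of 6 arrays (224 combinations), 29 had a lowest or highest array whose gap to the next, as a share of the group's range, was above Dixon's critical value for 6 arrays. Chance flags about 1 in 20, or 11.2. Arrays whose markers lie nearer the other tissue held 13, and the arrays of rat HLP+Apocynin 3 held 11. All values here are log2 levels, and no cause was tested.

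Control cortex 4 was lowest for Slc12a8 (8.61), Slc13a3 (12.63) and Slc34a3 (10.11) and highest for Slc26a7 (6.60), Slc4a1 (7.31) and Slc4a11 (6.65). HLP+Apocynin medulla 3 was lowest for Slc13a2 (8.84), Slc13a3 (10.59), Slc17a1 (9.78), Slc17a3 (9.02), Slc17a5 (7.76), Slc26a1 (9.02), Slc34a1 (9.45) and Slc9a3 (8.35) and highest for Slc34a2 (11.35). Its partner, HLP+Apocynin cortex 3, was highest for Slc34a2 (10.22) and lowest for Slc34a3 (11.17). The same array pair had the highest fibroblast and macrophage marker scores of its groups.

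Apocynin medulla 4 was lowest for Slc20a2 (7.65) and highest for Slc4a9 (8.70) and Slc8a1 (6.53). Control medulla 4 was lowest for Slc34a2 (6.75). HLP+Apocynin medulla 5 was highest for the dim probe of Slc4a4 (6.60). Apocynin cortex 3 was highest for Slc34a2 (8.92), and apocynin cortex 1 for Slc12a8 (10.02) and Slc20a2 (7.71). Single values were flagged for Slc4a8 in HLP cortex 1 (6.45, lowest), Slc26a5 in HLP+Apocynin cortex 5 (6.61, highest), Slc17a1 in HLP medulla 1 (10.24, lowest) and Slc26a3 in HLP medulla 4 (6.56, highest).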

How the results depend on the processing

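Over the alternatives, the members called between treatments kept their direction in every value computed (269 passed the test and 61 did not). Among all members tested in cortex, called or not, signs did turn with the names of the second table. Of 36, 21 turned for HLP against control, 8 for HLP+Apocynin against control and 7 for apocynin against control. For HLP+Apocynin, 12 turned against HLP and 19 against apocynin. For members called between tissues, 289 values kept their call, 19 did not pass and 5 turned. Those that did not pass were 7 for Slc4a8, 3 for Slc26a3, 2 each for Slc8a3 and Slc4a2, and 1 each for Slc34a1, Slc20a1, Slc17a2, Slc9a2 and the dim Slc4a4 probe. The 5 that turned were all in the authors' log2 values: Slc12a5 −0.21, Slc17a2 −0.12, Slc17a9 −0.18, Slc8a1 −0.12 and Slc9a2 −0.14. Those values share a median within each tissue, and the median of all probes shifted to −0.45 there, with 8 members higher in cortex and 25 higher in medulla. Median scaling gave 13 and 14, with a median of all probes of −0.07. These splits are of members alone.

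The counts of members called follow for the settings that moved them by over 1.5 times, in the order HLP then HLP+Apocynin (each against control), HLP+Apocynin against HLP, and last apocynin against control. Apart from the index and the fits without arrays nearer the other tissue, they are counts of members alone. A change in those cannot be told apart from a change over all probes. In cortex, with 1, 5, 7 and 6 called, detection in all arrays gave 0, 1, 1 and 1 (17 between tissues), and a mean level of at least 7 gave 0, 0, 1 and 1 (16 between tissues): fewer probes were tested. The tissue index as a covariate gave 0, 10, 6 and 11. Over all probes it called 0, 2395, 1601 and 2444, in place of 294, 1968, 2257 and 2057. HLP against control gave 0 with the names of the second table, only the arrays compared, normalization over 36 arrays, the methods' t-test, and without arrays nearer the other tissue, and 2 without background correction and with only the arrays that both tables put in the same group. HLP+Apocynin against control gave 3 with median scaling, the t-test and only the arrays compared.

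In medulla, with 0, 1, 1 and 2 called, HLP+Apocynin against control gave 3 with median scaling, 0 with the names of the second table and with arrays of the same group in both, 7 with the index and 5 without arrays nearer cortex. HLP+Apocynin against HLP gave 4 with the index and 0 with median scaling, no filter, arrays of the same group, only the arrays compared, the authors' log2 values, the t-test and without the arrays of HLP+Apocynin 3. Apocynin against control gave 1 with median scaling, the authors' log2 values, the t-test and only the arrays compared, 5 with the names of the second table, 6 with the index, 9 without arrays nearer cortex and 0 with arrays of the same group. Over all probes, the index called 1745 for HLP+Apocynin against control, 1841 against HLP and 1473 for apocynin against control. These stood in place of 883, 987 and 855, and without arrays nearer cortex they were 1261, 753 and 1226. Causes were not tested. The index, the level of 7 and the removal of HLP+Apocynin 3 were chosen after seeing the data.

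Within a tissue, equal numbers in different groups share only a number (median correlation of deviations 0.02 in cortex and 0.10 in medulla). With a replicate block, HLP+Apocynin against control and against HLP in medulla each called 2 members in place of 1, and the other counts moved by less than 1.5 times. These too are counts of members alone. Array signals near the background limit what dim probes can show.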
